A study of Mus musculus with 9 samples.

Results

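The transcripts described here are 9 genes that mark T and B lymphocytes, measured in the aorta of male mice. The genes were given by name, and every probe set that the platform annotation pairs with 1 of them alone was taken. Of the 9 genes, 8 had such a probe set, 14 probe sets in all, out of 18193 genes on the array, and Lck was not analysed here. For each gene the probe set with the highest mean over the 9 arrays stands for it. The tissue came from 4 BMAL-/- mice (arrays F02, F03, F05 and F08) and 5 BMAL+/+ mice, whose arrays are F01, F04, F07, F09 and F10, that is, without or with BMAL1, the transcription factor encoded by Arntl that drives the circadian clock. All mice were partly backcrossed to C57Bl/6J, and no age is stated for them. They spent at least 2 weeks in a cycle of 12 h of light and 12 h of dark, then at least 30 h in darkness, and were killed at ZT14, early in the subjective night. Before dissection the circulation was flushed with 10 ml of saline and 5 ml of water, and 1 aorta gave 1 array. One label speaks of the thoracic aorta, while the dissection described ran from the arch to past the branching of the femoral arteries.

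Lymphocytes are recognised by their antigen receptors. In T cells the receptor signals through the CD3 chains, and the coreceptors CD4 and CD8 bring the kinase Lck to it, whereas in B cells the antibody on the surface signals through CD79a and CD79b, and Ms4a1 encodes the surface protein CD20. Rag1 cuts the DNA from which both kinds of receptor gene are assembled, so it is active in immature lymphocytes of thymus and bone marrow and silent in mature ones. A normal mouse aorta holds few lymphocytes, mostly in the adventitia and the fat around it, and small lymph nodes lie beside the vessel.

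Promoter sequences were at hand for 5 of the 8 genes, Cd3e, Cd3g, Cd3d, Cd8a and Rag1, and those of Cd4 and of the B cell genes Cd79b and Ms4a1 were not analysed here. Those of Cd3e, Cd3g, Cd3d and Cd8a are shown because these genes were highest on the same arrays. They are RefSeq sequences of 300 bases each that span the gene start. Capitals mark matches to GGAAGT, the core bound by Ets factors, and to CAGGTG, an element bound by E proteins, on either strand. No 2 matches overlapped.
Cd3e promoter, GRCm38.p6, chr9:45009562-45009861, minus strand: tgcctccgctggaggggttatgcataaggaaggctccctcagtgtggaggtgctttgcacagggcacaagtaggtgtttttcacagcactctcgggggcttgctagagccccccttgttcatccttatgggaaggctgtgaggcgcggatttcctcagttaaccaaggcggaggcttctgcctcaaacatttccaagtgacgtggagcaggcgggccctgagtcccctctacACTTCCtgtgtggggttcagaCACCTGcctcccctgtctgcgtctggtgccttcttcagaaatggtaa
Cd3g promoter, GRCm38.p6, chr9:44980382-44980681, minus strand: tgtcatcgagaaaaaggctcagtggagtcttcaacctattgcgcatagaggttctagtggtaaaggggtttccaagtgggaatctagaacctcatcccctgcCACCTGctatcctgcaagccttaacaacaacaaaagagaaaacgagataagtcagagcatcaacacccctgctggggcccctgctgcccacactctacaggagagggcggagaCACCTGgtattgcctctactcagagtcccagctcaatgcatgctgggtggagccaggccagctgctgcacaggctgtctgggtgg
Cd3d promoter, GRCm38.p6, chr9:44981536-44981835, plus strand: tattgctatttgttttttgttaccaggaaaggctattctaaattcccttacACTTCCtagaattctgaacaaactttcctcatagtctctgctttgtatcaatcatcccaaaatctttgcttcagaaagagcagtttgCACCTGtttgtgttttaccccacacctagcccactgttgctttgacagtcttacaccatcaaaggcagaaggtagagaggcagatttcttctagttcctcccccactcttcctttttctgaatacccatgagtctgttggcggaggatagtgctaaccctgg
Cd8a promoter, GRCm38.p6, chr6:71373177-71373476, plus strand: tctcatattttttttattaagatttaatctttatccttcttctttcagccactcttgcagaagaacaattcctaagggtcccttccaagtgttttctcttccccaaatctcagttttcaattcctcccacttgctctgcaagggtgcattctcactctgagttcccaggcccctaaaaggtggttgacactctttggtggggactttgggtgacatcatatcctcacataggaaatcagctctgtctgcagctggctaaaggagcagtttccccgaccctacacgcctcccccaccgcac

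The 3 Cd3 genes are neighbours on chromosome 9, where the starts of Cd3g and Cd3d lie 1355 bases apart and are read in opposite directions. CAGGTG stood in the promoters of Cd3e, Cd3g and Cd3d, and in that of Rag1, against 20.2% of the 32851 promoters of the table. GGAAGT stood in those of Cd3e, Cd3d and Rag1, against 23.8%. TGTGGT, the element of Runx factors, stood only in that of Rag1 among the 5, against 16.8% of all. None of the 5 held CACGTG, the E-box that BMAL1 binds (7.2% of all promoters). These are matches of letters in a short window and say nothing about binding.

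Some arrays stood apart or disagreed with their labels. The labels of F01 name both genotypes, and it was kept in BMAL+/+ by its title and strain. Arntl, the targeted gene, read 5.87 on F02, 6.22 on F03, 2.77 on F05 and 6.05 on F08 among arrays labelled BMAL-/-, against 6.67 on F04 and 2.74 to 2.82 on the other 4 labelled BMAL+/+. Apart from F04 and F05 its signal was thus higher where the labels say BMAL-/-, opposite to a loss of transcript, and no source used here says whether the deletion covers this probe set. Nr1d2, a clock gene that BMAL1 activates, ran the other way, with 5.08 on F02, 5.89 on F03 and 5.48 on F08 labelled BMAL-/-, against 10.4 to 11.7 on the BMAL+/+ arrays other than F04, while F05 read 11.2 and F04 5.81. Genotypes are therefore those of the labels throughout. The array labelled BMAL-/- F05 and the array labelled BMAL+/+ F04 carried the clock gene pattern of the other genotype. Npas2, a partner of BMAL1, read 3.40 on F05, while F02, F03 and F08 gave 7.90 to 8.52. It read 8.36 on F04, while F01, F07, F09 and F10 gave 3.37 to 3.40. F02 and F10 did not stand with the other genotype there. Genotype differences are therefore given with and without F04 and F05. For the lymphocyte genes, other arrays stood apart, F02 in BMAL-/- and F10 in BMAL+/+. Values are log2 expression, array medians lay between 3.13 and 3.24, and a dense floor of transcripts near background lies between about 2 and 3.

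Lymphocyte transcripts were high on 1 array of each genotype and low on the others. F02, from a BMAL-/- mouse, and F10, from a BMAL+/+ mouse, were the 2 highest arrays for 6 of the 8 genes, Cd3e, Cd3g, Cd3d, Cd8a, Cd79b and Ms4a1. For Cd3e the value on F10, 2.57, lay within the floor. Over all 45037 probe sets, 3.98% had these 2 arrays highest. For 4 of the 8 genes, Cd3g, Cd3d, Cd79b and Ms4a1, each of the 2 arrays was at least 1 log2 unit above every other array, as were 0.81% of all probe sets and 1.28% of all genes at their brightest probe set. The 2 arrays were singled out after the values were seen, so these shares describe the arrays and are not a test. Cd4 and Rag1 did not stand out on them at their brightest probe sets. In whole tissue, fewer cells of a type and less RNA per cell cannot be told apart.

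**Figure D1:**
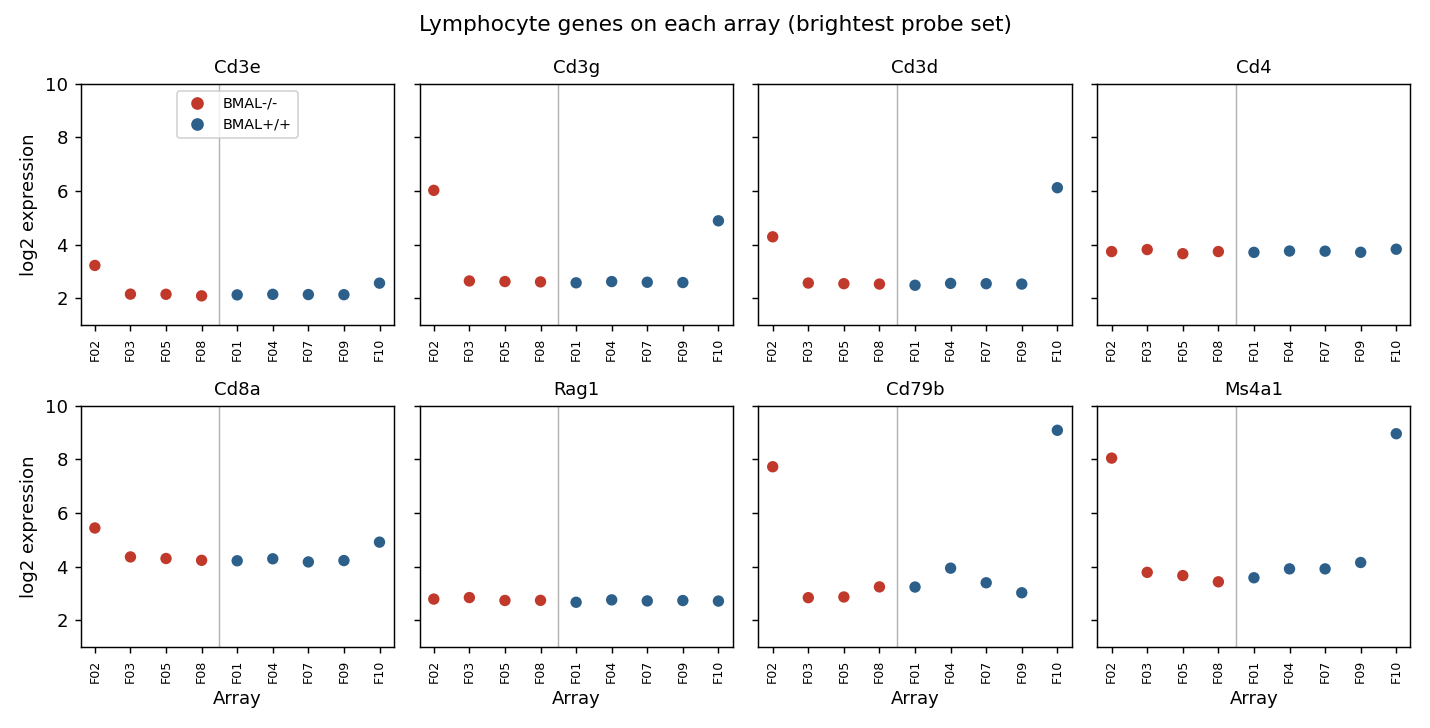
Log2 expression (vertical axis) of the 8 measured lymphocyte genes on each of the 9 arrays (horizontal axis), at the brightest probe set of each gene, with BMAL-/- arrays in red and BMAL+/+ arrays in blue. F02 and F10 stand above the other 7 arrays for Cd3e, Cd3g, Cd3d, Cd8a, Cd79b and Ms4a1, up to 8.05 and 9.08, and not for Cd4 or Rag1.

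The B cell genes gave the widest steps. Cd79b, the signalling chain of the B cell receptor, read 7.72 on F02, 2.85 on F03, 2.87 on F05 and 3.25 on F08 in BMAL-/- aortas, against 3.24 on F01, 3.95 on F04, 3.40 on F07, 3.03 on F09 and 9.08 on F10 in BMAL+/+ aortas. F02 was thus 3.78 log2 units and F10 5.14 above the highest of the other 7 arrays, while those 7 spanned 1.10. On its own array Cd79b exceeded 88.2% of all probe sets on F02 and 93.8% on F10, and between 39.2% and 59.6% on the other 7.

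Ms4a1, the gene of CD20, had the same pattern on both of its probe sets. On the brighter one it read 8.05 on F02, 3.79 on F03, 3.67 on F05 and 3.44 on F08 in BMAL-/- aortas, against 3.59 on F01, 3.92 on F04, 3.92 on F07, 4.16 on F09 and 8.95 on F10 in BMAL+/+ aortas. On the dimmer one F02 read 7.72 and the other BMAL-/- arrays 1.98 to 2.23, whereas F10 read 8.07 and the other BMAL+/+ arrays 2.12 to 3.05. Both probe sets were higher on F10 than on F02, by 0.91 and 0.36.

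The CD3 chains, which carry the receptor signal into the T cell, were highest on the same arrays but not in the same order. Cd3g read 6.02 on F02, 2.65 on F03, 2.63 on F05 and 2.61 on F08 in BMAL-/- aortas, against 2.58 on F01, 2.62 on F04, 2.60 on F07, 2.59 on F09 and 4.89 on F10 in BMAL+/+ aortas. Cd3d read 4.29 on F02, 2.57 on F03, 2.55 on F05 and 2.53 on F08 in BMAL-/- aortas, against 2.49 on F01, 2.56 on F04, 2.55 on F07, 2.53 on F09 and 6.12 on F10 in BMAL+/+ aortas. F02 was above F10 by 1.13 for Cd3g, and below it by the difference of -1.83 for Cd3d. With 1 array on each side, these differences have no replicate check. Cd3e read 3.23 on F02, 2.16 on F03, 2.15 on F05 and 2.09 on F08 in BMAL-/- aortas, against 2.13 on F01, 2.15 on F04, 2.14 on F07, 2.14 on F09 and 2.57 on F10 in BMAL+/+ aortas. Its values on F02 and F10 exceeded only 49.8% and 30.0% of the probe sets of their array, so Cd3e lay in the lower part of the range even where it was highest. On the other 7 arrays all 3 genes lay within the floor, as did Cd3e on F10.

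The coreceptor genes depended on the probe set. Cd8a, the alpha chain of CD8, read 5.44 on F02, 4.36 on F03, 4.31 on F05 and 4.24 on F08 in BMAL-/- aortas, against 4.22 on F01, 4.29 on F04, 4.18 on F07, 4.23 on F09 and 4.91 on F10 in BMAL+/+ aortas. A second probe set read 3.43 on F02 and 3.30 on F10, and 2.50 to 2.57 on the other 7 arrays. Another read 2.47 on F02 and 4.16 on F10, against 2.39 to 2.47 on the other 7, so that only F10 stood apart. The remaining 2, which carry the suffix that Affymetrix gives to probes that can match other transcripts, read 3.05 and 3.30 on F02 and 1.94 and 1.75 on F10, so that of these 2 arrays F02 alone was high. On the dimmer of them the BMAL+/+ array F04, at 2.05, also lay above the other BMAL+/+ arrays, at 1.73 to 1.75. Cd4, the coreceptor of helper T cells and also made by some macrophages, did not set F02 and F10 apart on its brighter probe set. It read 3.74 on F02, 3.82 on F03, 3.66 on F05 and 3.74 on F08 in BMAL-/- aortas, against 3.71 on F01, 3.76 on F04, 3.76 on F07, 3.72 on F09 and 3.83 on F10 in BMAL+/+ aortas. Its dimmer probe set read 2.66 on F02 and 2.39 to 2.45 on the other BMAL-/- arrays, against 4.29 on F10 and 2.39 to 2.45 on the other BMAL+/+ arrays.

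**Figure D2:**
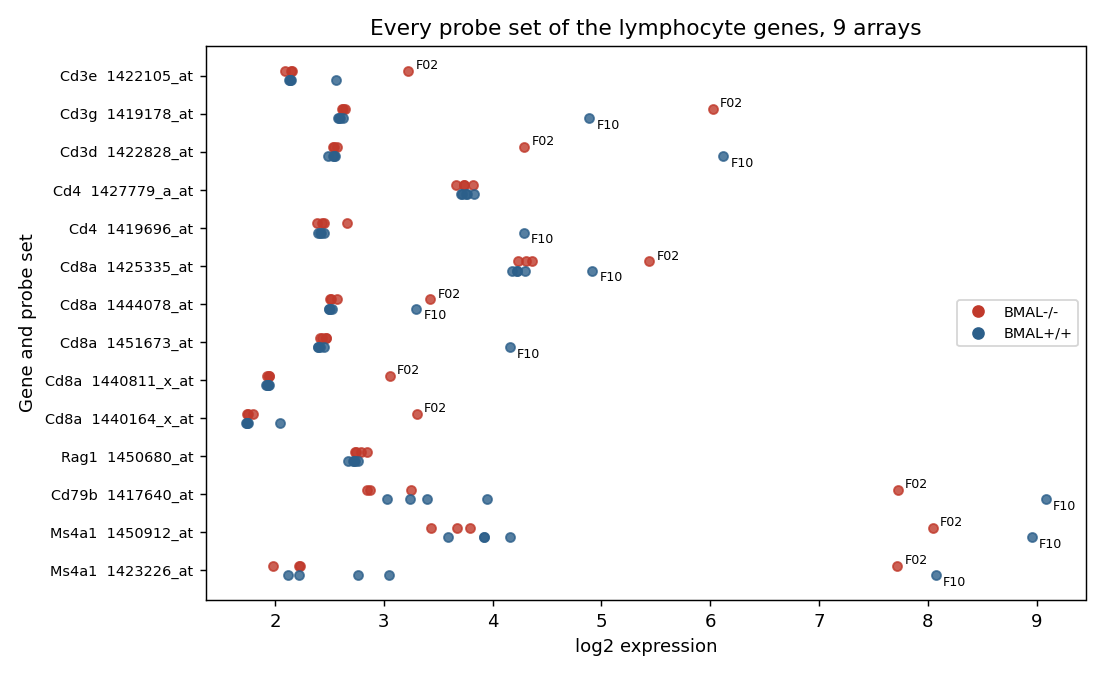
Log2 expression (horizontal axis) on the 9 arrays for each of the 14 probe sets of the 8 genes (vertical axis), with BMAL-/- arrays in red above BMAL+/+ arrays in blue, and F02 and F10 named where they exceed the other 7 arrays by more than 0.5. Both probe sets of Ms4a1 set F02 and F10 apart, whereas those of Cd4 and Cd8a differ in which array stands out.

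Rag1, the recombinase of immature lymphocytes, did not follow the other genes. It read 2.79 on F02, 2.85 on F03, 2.74 on F05 and 2.75 on F08 in BMAL-/- aortas, against 2.67 on F01, 2.76 on F04, 2.72 on F07, 2.74 on F09 and 2.72 on F10 in BMAL+/+ aortas. All 9 values exceeded between 36.5% and 39.4% of the probe sets of their array. Some other genes of immature T cells were likewise near the floor on F02 and F10. Rag2, the partner of Rag1, read 2.96 and 2.79, Dntt, which adds bases at receptor gene joints, 2.61 and 2.59, and Ptcra, the pre-T cell receptor chain, 2.44 and 2.38. Of the 13 measured genes on the thymocyte list, Cd8b1 alone was at least 1 unit higher on both arrays, with 3.73 on F02 and 6.09 on F10 against 2.65 to 2.72 on the other 7, and it is also a gene of mature CD8 T cells. Cd1d1, an antigen-presenting molecule and the brightest gene of that list, read 11.18 on F02 and 11.11 on F10, against 10.96 to 11.40 on the other 7, and Cd24a, a surface protein of immature lymphocytes, 10.56 on F02 and 10.47 on F10, against 8.67 to 10.09 on the other 7, so that both arrays were highest by less than 1 unit. Not all of that list was flat on F02. Tox read 5.02 on F02 and 3.78 on F10, against 3.40 to 3.93 on the other 7, so that F02 alone stood apart. Aqp11 read 5.19 on F02 and 4.58 on F10, within the 3.87 to 5.27 of the other 7. None of the 12 thymic epithelium genes was at least 1 unit higher on both, and Foxn1, the factor that makes thymic epithelium, read 2.37 on F02 and 2.31 on F10. Rag2, Dntt, Ptcra and Foxn1 are named as the best known of their lists, chosen after their values were seen.

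The wider lists of lymphocyte genes showed the same 2 arrays. With the 8 members left out, 14 of 34 measured T cell genes and 23 of 33 measured B cell genes were at least 1 unit higher on both F02 and F10 than on any other array, beside 1.28% of all 18193 genes at their brightest probe set. Among T cell genes, Bcl11b, a factor that fixes T cell identity, read 7.74 on F02 and 5.54 on F10, against 2.62 to 2.84 on the other 7. Il7r, the receptor for the survival factor interleukin 7, read 6.44 on F02 and 5.68 on F10, against 2.37 to 2.45. Cd28, a costimulatory receptor, read 6.81 on F02 and 5.36 on F10, against 2.72 to 3.09. Cd2, an adhesion receptor, read 5.09 on F02 and 6.77 on F10, against 2.79 to 2.95. Satb1, a chromatin organiser, read 8.19 on F02 and 7.75 on F10, against 5.29 to 6.00 on the other 7. Thy1, a surface protein of T cells that fibroblasts and neurons also make, read 7.67 on F02 and 6.91 on F10, against 5.82 to 6.66 on the other 7. These genes were named for a wide range or a high level, so wide gaps follow in part from that choice. Of the 34, 22 had F02 and F10 as their 2 highest arrays (3.98% of all probe sets). Gata3, Zap70 and Lef1 were chosen after their values were seen. Gata3 read 2.54 on F02 and 2.43 on F10, against 2.39 to 2.48. Zap70 read 2.92 and 2.76, within the 2.70 to 3.27 of the other 7. Lef1 read 5.81 on F02 but 3.04 on F10, against 2.27 to 2.34.

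Among B cell genes, Pou2af1, a coactivator of octamer promoters, read 8.61 on F02 and 8.39 on F10, against 2.54 to 2.63 on the other 7 arrays. H2-Ob, a chain of an antigen-loading regulator, read 8.16 on F02 and 7.55 on F10, against 2.55 to 2.62. Tnfrsf13c, the receptor for the B cell survival factor BAFF, read 8.99 on F02 and 8.74 on F10, against 3.35 to 3.81. Bank1, an adaptor of B cell receptor signalling, read 9.02 on F02 and 8.92 on F10, against 4.01 to 4.75 on the other 7. At these 4 genes each of the other 7 arrays stayed far below F02 and F10, in both genotypes. They were named for a wide range over the arrays or a high level, so wide gaps follow in part from that choice. Ighm, the heavy chain of IgM, varied on the other arrays too, and read 12.84 on F02 and 11.84 on F10, against 7.15 to 10.65. Ebf1, a factor of early B cells that fat cells also make, read 10.07 on F02 and 9.81 on F10, within the 9.51 to 10.69 of the other 7. Pax5 and Cd180, chosen after their values were seen, stayed near the floor. Pax5 read 2.29 on F02 and 2.25 on F10, against 2.22 to 2.29 on the other 7. Cd180 read 2.46 on F02 and 2.41 on F10, against 2.39 to 2.42.

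The balance between the 2 arrays differed from gene to gene. Among the 14 T cell genes, 7 were higher on F02 than on F10, with a median difference (F02 minus F10) of 0.02. Among the 23 B cell genes, 10 were higher on F02, with a median difference of -0.27, beside a median of 0.06 over all genes. No test was made, since each side is 1 array.

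**Figure D3:**
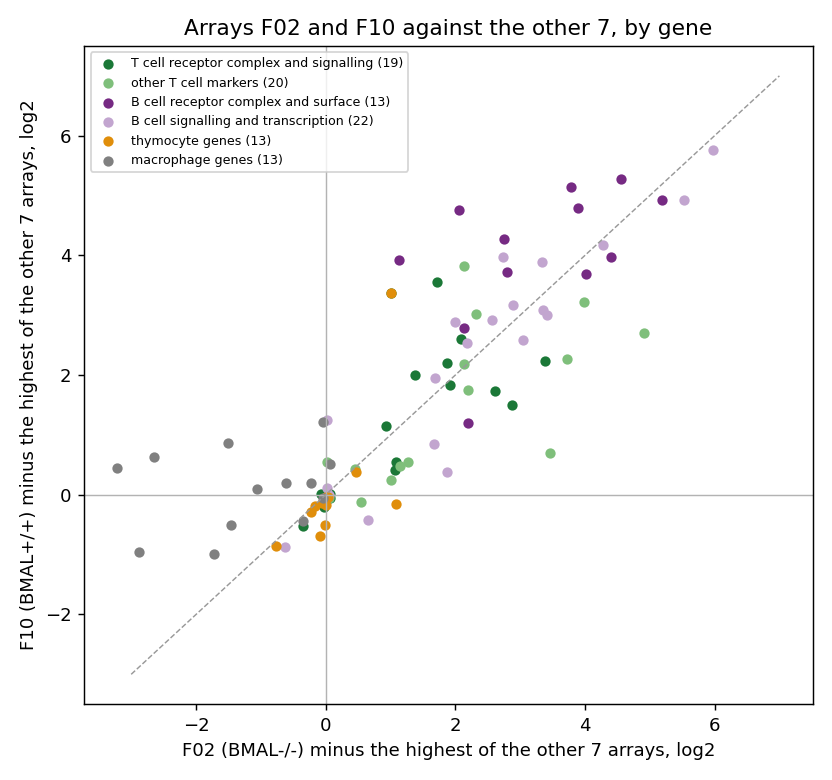
Each point is a gene of 6 lists, the members included, placed by how far F02 (BMAL-/-, horizontal axis) and F10 (BMAL+/+, vertical axis) exceed the highest of the other 7 arrays, in log2 units, and the dashed line marks equal excess. T and B cell genes spread to the upper right, whereas genes of thymocytes and macrophages lie mostly near or below 0 on at least 1 axis.

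Genes of other cell types were set beside these values. All 15 pan-leukocyte genes had F02 and F10 as their 2 highest arrays, and 14 of them by at least 1 unit. Laptm5, a lysosomal protein of blood cells, read 12.07 on F02 and 11.05 on F10 against 8.06 to 9.10 on the other 7, and Coro1a, an actin regulator of leukocytes, 11.49 and 10.71 against 6.26 to 7.36. Averaged over the list, F02 had 8.25 and F10 8.49, against 4.71 to 5.64 on the others. Macrophage genes did not follow. None of 13 was at least 1 unit higher on both arrays, and the list mean of 6.43 on F02 lay within the 5.88 to 7.37 of the other 7 arrays, while F10 was highest at 7.73. C1qb, a complement chain made by macrophages, read 10.54 on F02 and 11.35 on F10 against 9.51 to 11.15, and Csf1r, their growth factor receptor, 10.40 and 10.86 against 9.33 to 10.34. Of 12 dendritic cell genes, 0 were at least 1 unit higher on both, but 6 had F02 and F10 as their 2 highest arrays (3.98% of all probe sets). The list averaged 5.53 on F02 and 5.96 on F10, against 4.52 to 5.11 on the other 7. Cd74, the chain that guides antigen-presenting molecules and that B cells also make, read 9.99 on F02 and 11.15 on F10, against 7.24 to 9.41 on the other 7.

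Of 9 measured genes of lymph node stroma and vessels, 3 were at least 1 unit higher on both arrays. Glycam1, a ligand for lymphocyte homing made by lymph node venules, read 12.06 on F02, 3.20 on F03, 3.14 on F05 and 3.10 on F08 in BMAL-/- aortas, against at most 3.12 on F01, F04 and F09, 6.74 on F07 and 10.15 on F10 in BMAL+/+ aortas. Cxcl13, the chemokine that draws B cells into follicles, read 9.24 on F02 and 10.30 on F10, against 3.11 to 5.83 on the other 7. Ltb, a lymphotoxin chain that lymphocytes make themselves, read 6.88 and 8.14, against 3.01 to 3.93. These 3 were chosen after their values were seen. The brightest genes of the list, Pdpn and Lyve1, which fibroblasts, macrophages and lymphatic vessels make, were not set apart, with 7.98 and 6.96 on F02 and 7.13 and 8.27 on F10, against 6.04 to 8.17 and 5.40 to 8.16 on the other 7. The part of lymph node tissue in the lymphocyte values was not tested.

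Blood, fat, muscle and nerve genes did not have F02 and F10 as a pair apart. In these lists and in those of smooth muscle and endothelium, 0 genes were at least 1 unit higher on both arrays. Blood cell genes on F02 averaged within the 4.02 to 4.67 of the other 7 arrays, and F10 was lowest with 3.74. Smooth muscle genes averaged 9.65 on F02 and 10.59 on F10, against 9.53 to 11.09 on the other 7, high on every array. Brown fat genes averaged 10.02 on F02 and 10.29 on F10, against 9.60 to 11.10, with Ucp1, the uncoupling protein of brown fat, at 13.10 and above on all 9 arrays. F02 was the lowest array for the means of white fat and endothelial genes. White fat genes averaged 11.66 on F02 and 12.20 on F10, against 11.91 to 12.39 on the other 7. Endothelial genes averaged 6.18 on F02 and 6.72 on F10, against 6.62 to 7.05.

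**Figure D4:**
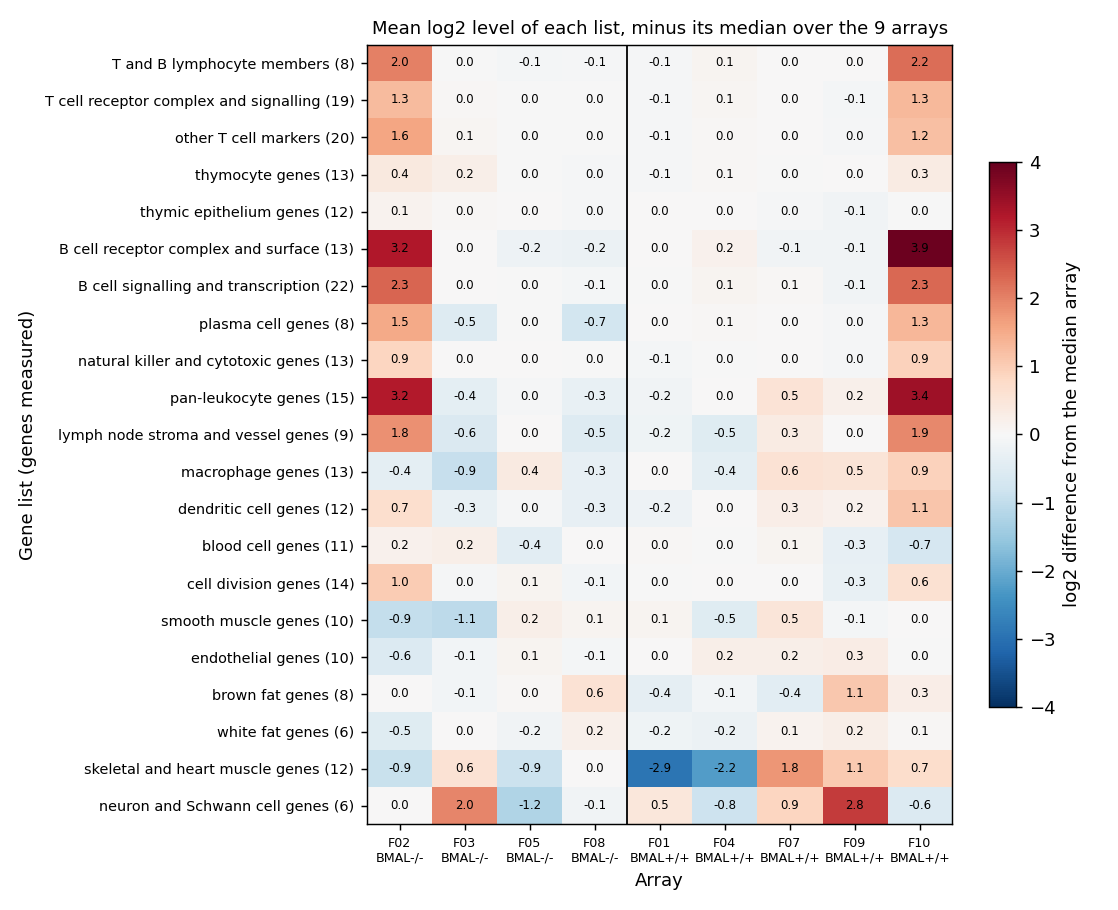
Mean log2 level of each gene list on each array, given as the difference from the median of that list over the 9 arrays (colour and number, log2 units), with BMAL-/- arrays left of the line and BMAL+/+ arrays right of it. Lymphocyte, pan-leukocyte and lymph node lists stand out on F02 and F10. The plasma cell, natural killer, dendritic cell, cell division and thymocyte lists also average higher on both than on any other array. Muscle and nerve lists vary over other arrays.

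The comparison of genotypes asked whether aortas without BMAL1 held more or less of these transcripts, and no difference was detectable. In limma, 0 of the 8 genes had an adjusted p under 0.05, and the percentage over all 45037 probe sets was likewise 0.0%. The one-way analysis of variance named for the study called 0 as well. Without adjustment 0 of the 8 genes had a p under 0.05, beside 8.67% of all probe sets, 7.92% higher and 0.75% lower in BMAL-/-. At no gene were the groups free of overlap (0.773% of all probe sets). Of the 8 differences (BMAL-/- minus BMAL+/+), 4 were positive and 4 negative, with a median of 0.022 beside 0.030 over all genes, and the adjusted p from limma lay between 0.37 and 0.947. The standard errors of Cd79b and Ms4a1 were several times larger than their differences. Cd79b averaged 4.17 ± 2.38 (SD, n = 4) in BMAL-/- aortas, against 4.54 ± 2.56 (SD, n = 5) in BMAL+/+ aortas, a difference of -0.37 ± 1.49 (SE). Ms4a1 averaged 4.74 ± 2.21 (SD, n = 4) in BMAL-/- aortas, against 4.91 ± 2.27 (SD, n = 5) in BMAL+/+ aortas, a difference of -0.17 ± 1.35 (SE). For the T cell genes the differences were 0.42 ± 0.81 (SE) for Cd3g, -0.26 ± 0.81 for Cd3d, 0.18 ± 0.23 for Cd3e, 0.22 ± 0.27 for Cd8a and -0.014 ± 0.057 for Cd4. Rag1 had the smallest p of the 8 but a difference of only 0.058 ± 0.029 (SE), beside a median of 0.031 over the probe sets below the median brightness.

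Among single arrays left out, F02 and F10 moved the differences of Cd79b, Ms4a1, Cd3g and Cd3d furthest down and up. The difference of Ms4a1 also turned positive without F03, F05 or F08, and that of Cd79b without F03 or F05. Without F02 the difference of Cd79b was -1.55 and that of Ms4a1 -1.28, and without F10 they were 0.77 and 0.84. Likewise, Cd3g differed by -0.43 without F02 and 0.88 without F10, and Cd3d by -0.70 and 0.45. With both left out, a comparison chosen after their values were seen, 3 BMAL-/- and 4 BMAL+/+ arrays remained, and 0 of the 8 genes passed in limma (0.0% of all probe sets), with 0 also at an unadjusted p under 0.05 (1.03% of all, 0.735% higher and 0.295% lower in BMAL-/-). No gene of the 8 then had all its BMAL-/- arrays below all its BMAL+/+ arrays (0.409% of all probe sets). Cd79b then averaged 2.99 ± 0.23 (SD, n = 3) in BMAL-/- aortas, against 3.40 ± 0.39 (SD, n = 4) in BMAL+/+ aortas, a difference of -0.42 ± 0.22 (SE), and Ms4a1 averaged 3.63 ± 0.18 (SD, n = 3) in BMAL-/- aortas, against 3.90 ± 0.23 (SD, n = 4) in BMAL+/+ aortas, a difference of -0.26 ± 0.15 (SE). The 5 T cell genes then differed by -0.0053 to 0.072.

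Without F04 and F05, 0 of the 8 genes passed (0.00888% of all probe sets), and their adjusted p in limma lay between 0.208 and 0.982. Rag1 alone had an unadjusted p under 0.05, as did 23.7% of all probe sets, with a difference of 0.082. Of the other T and B cell genes, 0 of 34 and 0 of 33 passed in limma, with all 9 arrays or without either pair, and with all 9 arrays 0 of both had an unadjusted p under 0.05. Their median differences were 0.050 and 0.028. On the remaining lists limma likewise called 0 genes over the 9 arrays. These lists hold 172 genes, including other leukocyte genes, and Rag1, Cd8b1 and Themis, which the thymocyte list shares with the members or T cell lists. Without adjustment 7 of the 172 (4.07%, beside 8.67% of all probe sets) had a p under 0.05 in limma, named here after their values were seen. Ptcra, Aire, Krt14 and Ltf lay within the floor and were higher in BMAL-/- by only 0.045, 0.027, 0.024 and 0.028. The median over the probe sets below the median brightness was 0.031. Ppargc1a and Dio2 were higher in BMAL-/- by 0.70 and 1.17, and Pecam1 was on the lower side, with a difference of -1.39.

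**Figure D5:**
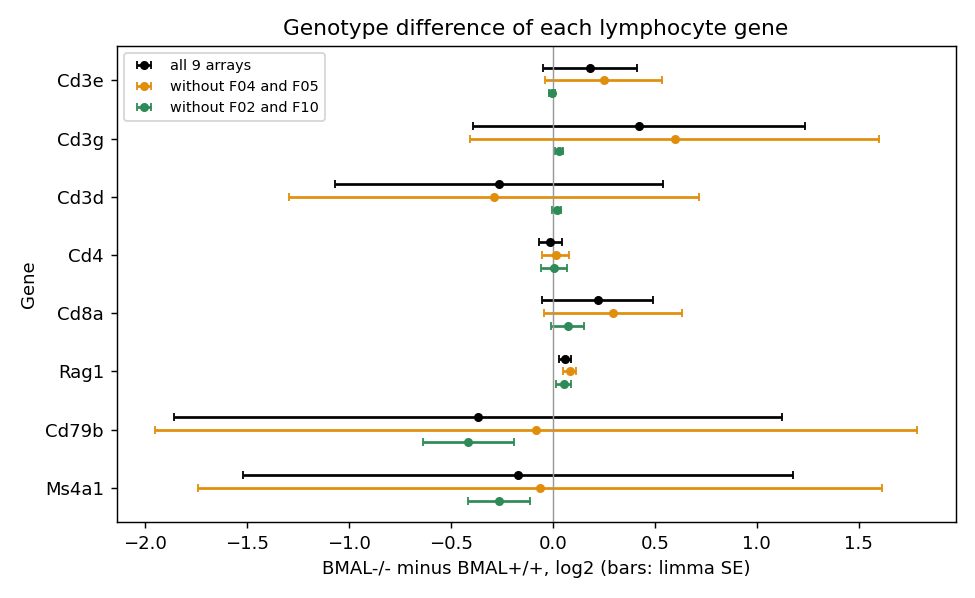
Difference in log2 expression (BMAL-/- minus BMAL+/+, horizontal axis) of each lymphocyte gene (vertical axis), with limma's standard error as bars, for all 9 arrays, without F04 and F05, and without F02 and F10. The bars of Cd79b and Ms4a1 shrink from 1.49 and 1.35 to 0.22 and 0.15 when F02 and F10 are left out.

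Genes whose levels ran most like the lymphocyte genes over the 9 arrays were sought among 5821 genes of sufficient level and spread. Level and spread were taken over all 9 arrays, so high values on F02 and F10 alone could bring a gene in. Tlr1, Cd72 and Ikzf1, for example, lay below the required mean of 4 on each of the other 7 arrays. A high r to the lymphocyte genes was therefore partly built in. The 6 most like the mean of the measured T cell members were Tlr1, Cd72, Ikzf1, Tnfrsf13c, Arhgap25 and Nfkbie, and the 6 most like the mean of Cd79b and Ms4a1 were Ugcg, Cd22, Selplg, Pclaf, Ighv14-2 and Nckap1l. Pearson's r over the 9 arrays was between 0.997 and 0.998 for the first and between 0.990 and 0.996 for the second, and it mainly measured the split of F02 and F10 from the rest. Spearman's rho was between 0.40 and 0.88 for the first and between 0.53 and 0.70 for the second. With both arrays left out, r ranged from -0.51 to 0.94 for the first and from 0.044 to 0.47 for the second. Tlr1, a receptor for bacterial lipoproteins, read 7.63 on F02 and 7.63 on F10 against 3.30 to 3.53 on the other 7, and Ikzf1, a factor of lymphocyte development, 7.27 on F02 and 7.19 on F10, against 3.22 to 3.32 on the other 7.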

How the data were processed

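RNA of 9 aortas was hybridised to 1 Affymetrix mouse array each, per the labels. The table the authors deposited gives log2 expression of 45101 probe sets and was used unchanged. GCRMA and MAS5 appear in the submitters' processing notes, with neither role nor settings. The 64 control probe sets were left out, leaving 45037, of which 34945 are paired with 1 gene, 932 with several and 9160 are not listed. RefSeq (GRCm38.p6) held the gene identifiers of 34741, and its symbols are used.

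Genotype alone was modelled with limma 3.58.1 in R 4.3.3 (eBayes with a mean-variance trend), two-sided, with Benjamini-Hochberg adjustment over all 45037 probe sets and a threshold of 0.05. Each difference is the BMAL-/- mean less the BMAL+/+ mean. P-values measure the spread between these mice only. The fit was tested on simulated data. The members and lists were chosen with earlier results of these data known. Genes named beside the members come from the brightest 2 of each list, the 4 with the widest range of T cell, thymocyte and B cell lists, the 6 most alike, and genes said to be chosen after their values were seen. Likeness needed a mean of at least 4 and an SD of at least 0.3.

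Alternatives were quantile normalization, centring, other variance models, array weights, a brightness filter, a floor at the 20th percentile, analysis of variance, F01 in BMAL-/-, averaged probe sets and left-out arrays. The number of arrays limits the precision. Plots were drawn with matplotlib 3.10.9.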

Additional observations from a re-analysis of the deposited data

Results flagged for a closer look

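In BMAL-/- aortas the array F02 lay apart from the other 3 for 6 of the 8 genes, the gap to its nearest neighbour taking a share of the whole range above the critical value of 0.829. The share was 0.944 for Cd3e, 0.990 for Cd3g, 0.978 for Cd3d, 0.896 for Cd8a, 0.918 for Cd79b and 0.924 for Ms4a1. In BMAL+/+ aortas F10 lay apart from the other 4 for the same 6 genes, with shares above the critical value of 0.710. They were 0.954 for Cd3e, 0.980 for Cd3g, 0.981 for Cd3d, 0.841 for Cd8a, 0.849 for Cd79b and 0.894 for Ms4a1. The value of Cd3e on F10, 2.57, lay within the floor of about 2 to 3. Of the 236 other genes on the lists, F02 stood apart as the highest BMAL-/- array for 62 and F10 as the highest BMAL+/+ array for 72. Chance sets an array apart in about 1 of 20 groups, and over all genes on the array 11.7% had an array apart in BMAL-/- and 19.1% in BMAL+/+. These shares are for any array, whereas the counts of 62 and 72 are for F02 or F10 as the highest, so they are not the same measure.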

How the results depend on the processing

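Under every alternative run, 0 of the measured members passed in limma or the analysis of variance, and the lowest adjusted p of any member was 0.181. Of the 165 differences of members under alternatives, 146 kept their sign and 19 had the opposite one. With array weights the difference of Cd3e was -0.033, that of Cd3g -0.28, Cd3d -0.62, Cd79b -1.39 and Ms4a1 -1.06. With F01 in BMAL-/- it was -0.55 for Cd3d, -0.88 for Cd79b and -0.73 for Ms4a1. Without F04 and F05 that of Cd4 was 0.014, and 1 member, Rag1, had an unadjusted p under 0.05. Without F02 and F10 it was -0.0053 for Cd3e, 0.019 for Cd3d and 0.0045 for Cd4. Leaving out each array in turn gave -0.091 to 0.29 for Cd3e, -0.43 to 0.88 for Cd3g, -0.70 to 0.45 for Cd3d, -0.039 to 0.012 for Cd4, -0.065 to 0.36 for Cd8a, -1.55 to 0.77 for Cd79b and -1.28 to 0.84 for Ms4a1. The ends of the ranges of Cd3g, Cd3d, Cd79b and Ms4a1 came from leaving out F02 or F10. Without these 2 arrays the likeness of Tlr1 to the T cell members went to an r of 0.54. The brightness filter left 5 of the 8 genes in the table, so it gave no value for Cd3e, Cd3d and Rag1. No paired analysis was possible because the groups share no replicate number. With 4 and 5 arrays and 1 of each standing apart, a difference between genotypes smaller than the spread over arrays was not detectable for Cd79b and Ms4a1. Values within the floor carry no reliable size or order.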

Other observations

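Of 8 measured genes of antibody-secreting cells, 4 had F02 and F10 as their highest arrays, and Jchain, Igha and Mzb1 by at least 1 unit. The brightest genes of the list did not, with Xbp1, a factor of secretory cells, at 11.07 on F02 and lowest of all on F10, against 11.03 to 11.71 on the other 7, and Sdc1, a surface proteoglycan, at 8.97 and 8.05, against 7.42 to 9.35. Mzb1, a chaperone of antibody secretion, read 6.30 on F02 and 6.90 on F10, against 2.20 to 2.39. Jchain, which joins antibody units, read 10.41 on F02, 4.06 on F03, 5.42 on F05 and 2.99 on F08 in BMAL-/- aortas, against 7.02 on F01, 6.19 on F04, 5.80 on F07, 6.82 on F09 and 9.79 on F10 in BMAL+/+ aortas. With F02 and F10 left out, the 3 BMAL-/- arrays lay below the 4 BMAL+/+ arrays, as they did at 0.409% of all probe sets, with a difference of -2.30 ± 0.59 (SE) and an adjusted p of 0.774 in limma. The pan-leukocyte genes Lcp1, Cytip and Ikzf1, 3 of 15, also lay below, but by narrow margins. Their nearest arrays were F05 at 6.55 and F04 at 6.57 for Lcp1. For Cytip they were F03 at 3.29 and F01 at 3.32, and for Ikzf1 F05 at 3.26 and F01 at 3.29. Their differences were -0.73 ± 0.32 (SE), -0.45 ± 0.31 and -0.070 ± 0.039, each with an adjusted p of 0.774 in limma. Igha, the heavy chain of IgA, read 10.00 on F02 and 4.53 to 6.66 on the other BMAL-/- arrays, against 9.69 on F10 and 6.33 to 7.72 on the other BMAL+/+ arrays, so that these overlapped. Jchain, Igha, Mzb1, Lcp1, Cytip and Ikzf1 were chosen after their values were seen.

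Genes of killer lymphocytes and of dividing cells moved with the same arrays in part. Of 13 natural killer and cytotoxic genes, 2 were at least 1 unit higher on both F02 and F10. Ccl5, a chemokine of activated T and killer cells, read 7.57 on F02 and 7.00 on F10, against 2.47 to 2.69 on the other 7 arrays. Klrd1, a receptor chain of killer cells, read 6.18 on F02 and 5.01 on F10, against 2.38 to 2.44. Of 14 cell division genes, 4 were at least 1 unit higher on both arrays, among them Mki67, a protein of dividing cells, with 6.97 on F02 and 5.59 on F10 against 3.40 to 4.19. Gzmb, a protease of killer cells, stayed at the floor with 2.61 on F02 and 2.56 on F10. Klrd1, Mki67 and Gzmb were chosen after their values were seen.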
